A study of Homo sapiens with 6 samples.

Results

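The genes described here are 41 members of the NF-kB pathway and its inflammatory targets, taken by symbol from the 23354 genes of the deposited read-count table. All 41 were found in it. They were split by role into 4 genes of the IKK and IKK-related group, 5 adaptors and ubiquitin ligases, 5 NF-kB subunits, 9 inhibitors and regulators, 13 cytokines and chemokines, and 5 other targets. RNA was sequenced from LNCaP, an androgen-sensitive human prostate cancer cell line. In one group of 3 libraries the cells received white button mushroom (WBM) extract, 3 µL/mL, together with 1 nM dihydrotestosterone (DHT), a natural androgen, for 48 h. In the other 3 libraries they received the same DHT for the same time without the extract. Both groups carried DHT and grew in medium with fetal bovine serum, and whether a vehicle replaced the extract in DHT is not stated in the labels. The series title names androgen receptor signalling as the study's subject, and the comparison here is DHT+WBM against DHT.

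NF-kB is a family of dimeric transcription factors that are held inactive in the cytoplasm by IkB proteins. In the canonical arm, receptors for TNF, interleukin-1 or microbial products activate the IKK kinase complex, which marks IkB for degradation and frees dimers of RELA and NFKB1. In the non-canonical arm, a slower kinase route drives processing of the NFKB2 precursor and releases dimers with RELB. The freed dimers induce cytokines, chemokines, adhesion molecules and survival genes, and also the genes of their own inhibitors, so that signalling is limited by feedback.

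The libraries held 19127357 to 21490953 counts each, and 16511 to 16720 genes were detected per library. The labels do not say that the libraries of a group came from separate cultures, so the p-values cover library-to-library spread only, and that spread may be technical. The epithelial markers EPCAM and KRT18 were abundant in both groups, at 185 ± 11.8 and 246 ± 4.83 normalised read counts scaled to a common library size (CPM) in DHT+WBM and 190 ± 8.94 and 244 ± 11.7 CPM in DHT (SD, n = 3). Of the 10 luminal prostate markers 5 fell and KRT8 rose, where 29% of all tested genes fell and 29.2% rose. FOLH1, STEAP2, EPCAM and KRT18 did not pass the test. KLK3, which encodes prostate-specific antigen, was 616 ± 6.25 CPM in DHT+WBM and 1682 ± 75.3 CPM in DHT. The log2 fold changes were -1.45 for KLK3, -1.24 for KLK2, -1.66 for ACPP, -0.79 for TMPRSS2 and -0.50 for HOXB13, each past the test. Of the 14 leukocyte markers, PTPRC, CD14 and CD3E had at most 1 count in any library, whereas CD68 was expressed at 84.5 ± 4.61 CPM in DHT+WBM and 23.0 ± 1.1 CPM in DHT, and ITGAM and LYZ were expressed at lower levels. KRT5, a basal cell keratin, had 0 counts, and TP63 had 0 in DHT+WBM and at most 2 in DHT. In bulk RNA of this kind, fewer cells of a type and less RNA per cell cannot be told apart.

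Most measured members were higher with the extract. Of the 41 members, 34 passed the low-count filter, 26 rose, 4 fell and 4 were not called (edgeR's quasi-likelihood test, Benjamini-Hochberg adjusted p under 0.05 over 13466 genes). In all, 58.2% of tested genes were called. A rise was called in 29.2% of all tested genes and a fall in 29%, so a call by itself was common in these libraries. Of the 34 members, 13 rose by at least 1.5-fold and 0 fell by as much, against 8.08% and 6.46% of all tested genes. The median log2 fold change (DHT+WBM over DHT) of the 34 members was 0.32, against 0.00 over all tested genes. CXCL2 and LTB entered the test through their counts in DHT+WBM alone, and without them 24 of 32 members rose, 11 of them by at least 1.5-fold, with a median of 0.30. The list was drawn up with earlier results of these data known, so its direction is not independent evidence.

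**Figure D1:**
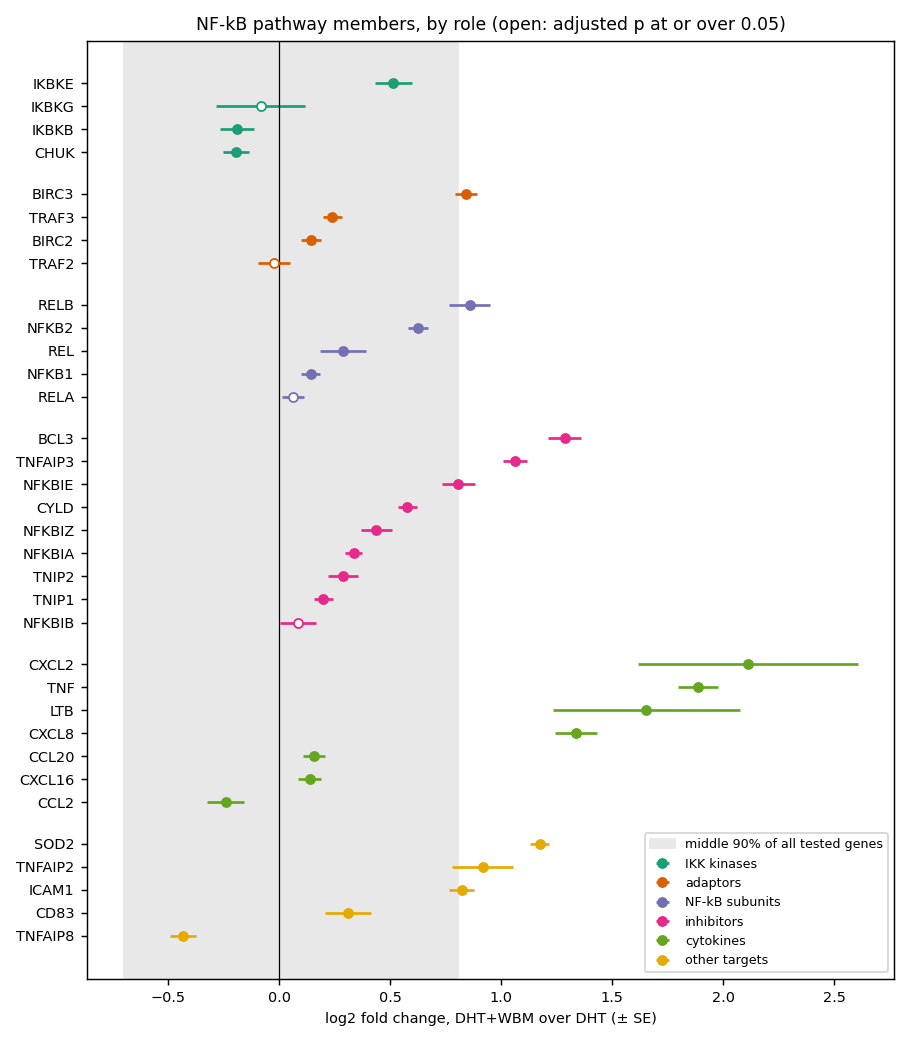
Log2 fold change of DHT+WBM over DHT with its standard error (SE, n = 3 libraries per group) for the 34 tested members, grouped by role, with open symbols for members that did not pass the test. The grey band holds the middle 90% of all tested genes, between -0.70 and 0.81, and TNF, CXCL8, BCL3, SOD2 and TNFAIP3 are among the members to its right.

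The promoter letters of members picked from those that rose are shown next, because NF-kB dimers are known to bind the kappa B element. RefSeq windows of GRCh38.p14, from 250 bases before to 50 bases after a gene's start, were found for 35 of the 41 members. Both strands were searched for the kappa B consensus GGGRNNYYCC, where R is A or G, Y is C or T and N is any base. They were also searched for the letters GGAATTTCC, and a stretch can match both at overlapping positions. The consensus occurred in 11.3% of all 35116 windows, and GGAATTTCC in 0.461%. At least one of them occurred in a window of 21 of the 35 members, against 13.5% of all genes with a window. The consensus, with or without GGAATTTCC, occurred in a window of 19 of the 35 members, against 13.3% of those genes. By call, 17 of 23 members that rose had a match, 0 of 2 that fell, 1 of 4 that did not pass the test and 3 of 6 that were too low to test. CXCL2 and LTB, which entered the test through DHT+WBM counts alone, are both among the 17. Genes can have several windows, and many members are listed because they are known NF-kB targets, so these shares are a description only. The following windows, printed 5′ to 3′ with the matches in capitals, are of 4 genes of inhibitors or survival factors and 3 of cytokines among those that rose.
TNFAIP3 (chr6:137867009-137867308, plus strand): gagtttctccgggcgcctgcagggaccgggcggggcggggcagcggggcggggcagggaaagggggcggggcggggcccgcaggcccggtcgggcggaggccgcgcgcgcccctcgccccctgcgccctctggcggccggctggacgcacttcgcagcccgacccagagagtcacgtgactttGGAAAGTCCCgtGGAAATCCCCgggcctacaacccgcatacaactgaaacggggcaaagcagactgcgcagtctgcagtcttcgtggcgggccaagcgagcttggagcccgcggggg
NFKBIA (chr14:35404700-35404999, minus strand): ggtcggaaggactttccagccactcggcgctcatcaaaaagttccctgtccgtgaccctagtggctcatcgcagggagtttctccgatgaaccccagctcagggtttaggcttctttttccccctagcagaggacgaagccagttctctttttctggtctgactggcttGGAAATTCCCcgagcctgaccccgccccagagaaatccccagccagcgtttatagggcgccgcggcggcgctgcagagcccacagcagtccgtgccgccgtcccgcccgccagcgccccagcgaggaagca
BCL3 (chr19:44748458-44748757, plus strand): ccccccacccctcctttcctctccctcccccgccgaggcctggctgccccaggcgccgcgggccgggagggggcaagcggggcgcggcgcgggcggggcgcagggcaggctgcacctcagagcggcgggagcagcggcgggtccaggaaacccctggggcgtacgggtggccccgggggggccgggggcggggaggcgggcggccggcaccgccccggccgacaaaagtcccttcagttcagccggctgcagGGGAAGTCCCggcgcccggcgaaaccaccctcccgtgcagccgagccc
BIRC3 (chr11:102317234-102317533, plus strand): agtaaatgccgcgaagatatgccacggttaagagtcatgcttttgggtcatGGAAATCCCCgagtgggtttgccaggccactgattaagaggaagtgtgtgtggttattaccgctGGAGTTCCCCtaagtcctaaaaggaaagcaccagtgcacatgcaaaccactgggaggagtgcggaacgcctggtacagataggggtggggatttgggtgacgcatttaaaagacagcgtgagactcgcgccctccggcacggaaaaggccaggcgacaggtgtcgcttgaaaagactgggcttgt
CXCL8 (chr4:73740319-73740618, plus strand): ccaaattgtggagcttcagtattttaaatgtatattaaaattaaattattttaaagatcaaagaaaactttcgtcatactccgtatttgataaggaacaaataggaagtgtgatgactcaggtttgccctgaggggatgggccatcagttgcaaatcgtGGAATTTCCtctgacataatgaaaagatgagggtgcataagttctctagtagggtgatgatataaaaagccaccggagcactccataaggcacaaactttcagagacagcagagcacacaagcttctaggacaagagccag
CXCL2 (chr4:74099146-74099445, minus strand): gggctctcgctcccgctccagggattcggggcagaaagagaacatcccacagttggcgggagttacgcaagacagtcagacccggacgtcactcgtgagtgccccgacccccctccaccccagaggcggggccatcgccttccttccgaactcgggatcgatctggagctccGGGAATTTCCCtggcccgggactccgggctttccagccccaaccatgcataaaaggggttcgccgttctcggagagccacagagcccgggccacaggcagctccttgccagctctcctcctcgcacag
TNF (chr6:31575315-31575614, plus strand): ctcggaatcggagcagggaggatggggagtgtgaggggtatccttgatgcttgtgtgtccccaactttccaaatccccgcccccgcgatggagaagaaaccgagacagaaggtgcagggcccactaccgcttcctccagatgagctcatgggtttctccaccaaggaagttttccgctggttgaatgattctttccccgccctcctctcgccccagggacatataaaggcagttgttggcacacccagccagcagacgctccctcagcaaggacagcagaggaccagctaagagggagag
In TNFAIP3, a pair of matches began 67 and 55 bases before the start. The NFKBIA match began 81 bases before the start and the CXCL8 match 91 bases before it. The BIRC3 matches began 199 and 135 bases before the start. The CXCL2 match, of overlapping consensus and GGAATTTCC letters, began 78 bases before it. The BCL3 match lay just inside the transcribed part. The TNF window held neither motif, which says only that these letters are not in that window.

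The IKK and IKK-related genes, which encode kinases at the head of the pathway and a regulatory subunit, showed small changes in both directions. IKBKE (chromosome 1, 206643586 to 206670223, plus strand, hg19), an inducible IKK-related kinase gene, had 15.6, 17.9 and 18.2 CPM in DHT+WBM, against 13.3, 10.8 and 12.1 CPM in DHT. All DHT+WBM libraries lay above all DHT libraries (log2 fold change 0.51, SE 0.08, edgeR adjusted p = 2.05e-06). CHUK (chromosome 10, 101948124 to 101989344), which encodes the catalytic subunit IKK-alpha, had 35.8, 39.7 and 35.6 CPM in DHT+WBM, against 41.7, 44.8 and 40.6 CPM in DHT. The groups did not overlap, and CHUK fell by 0.20 on the log2 scale (SE 0.06, edgeR adjusted p = 0.00354). IKBKB, which encodes the catalytic subunit IKK-beta, had 21.9, 18.9 and 16.2 CPM in DHT+WBM, against 22.5, 21.1 and 21.4 CPM in DHT. Its groups overlapped, and a log2 fold change of -0.19 ± 0.08 gave an edgeR adjusted p of 0.036.

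The IKBKB call did not hold throughout. Its adjusted p was 0.0538 without DHT+WBM replicate 2, 0.357 without DHT+WBM replicate 3 and 0.115 without DHT replicate 1, within a range of 0.00193 to 0.357 over all alternatives. Without DHT+WBM replicate 3 its log2 fold change was -0.09. IKBKG, the gene of the regulatory subunit NEMO, had 1.85, 2.77 and 1.75 CPM in DHT+WBM and 2.20, 1.76 and 2.73 CPM in DHT, and its log2 fold change of -0.08 ± 0.20 did not pass the test. IKBKG has a near-identical pseudogene to which reads can be misplaced, so its value is uncertain.

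Among the adaptors, the tested gene with the largest rise was BIRC3 (chromosome 11, 102188181 to 102210135, plus strand), a ubiquitin ligase of TNF receptor complexes and a known NF-kB target. BIRC3 had 140, 143 and 145 CPM in DHT+WBM, against 79.1, 88.3 and 71.5 CPM in DHT (log2 fold change 0.84 ± 0.05, edgeR adjusted p = 1.99e-17). Its paralogue BIRC2, which starts 7778 bases beyond the end of BIRC3 on the same strand, had 81.9, 85.2 and 84.8 CPM in DHT+WBM, against 75.1, 78.3 and 74.7 CPM in DHT. BIRC2 rose as well, without overlap (log2 fold change 0.14 ± 0.04, edgeR adjusted p = 0.00563). On the other side of BIRC3, YAP1 was 238 ± 11 CPM in DHT+WBM and 229 ± 6.21 CPM in DHT and did not pass the test.

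TRAF3 (chromosome 14, 103243816 to 103377837), which restrains the non-canonical arm, rose in a narrower range. It had 112, 114 and 109 CPM in DHT+WBM, against 94.9, 96.3 and 92.7 CPM in DHT (log2 fold change 0.24 ± 0.04, edgeR adjusted p = 6.98e-06). TRAF2, its partner in TNF receptor complexes, had 17.1, 17.9 and 16.8 CPM in DHT+WBM and 18, 17.1 and 17.5 CPM in DHT, with overlapping groups and a log2 fold change of -0.02 ± 0.07. TRAF1, an NF-kB-induced family member, was too rare for the test, with 8, 8 and 10 counts in DHT+WBM and 1, 3 and 3 counts in DHT. The ratio of its CPM was 3.69 (95% interval 1.56 to 10.1, exact Poisson, counting error only). With no low-count filter its edgeR adjusted p was 0.0094. In that same fit the 6 cytokine members too rare for the test did not pass. Their edgeR adjusted p ran from 0.121 for CXCL1 to 0.995 for IL6.

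The subunit genes differed in how far they moved. NFKB2 and RELB, the partners of the non-canonical arm, rose most. RELB (chromosome 19, 45504707 to 45541456, plus strand) had 12.5, 13.7 and 13.8 CPM in DHT+WBM, against 6.64, 8.35 and 7.12 CPM in DHT (log2 fold change 0.86 ± 0.09, edgeR adjusted p = 5.68e-10). NFKB2 (chromosome 10, 104153867 to 104162286, plus strand) had 98.8, 99.9 and 104 CPM in DHT+WBM, against 66.7, 64.4 and 65.0 CPM in DHT (log2 fold change 0.63 ± 0.04, edgeR adjusted p = 3.64e-15). For both genes every DHT+WBM library exceeded every DHT library.

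The canonical subunits changed by smaller amounts. REL, the c-Rel gene, had 7.50, 8.16 and 8.28 CPM in DHT+WBM, against 7.02, 6.54 and 6.04 CPM in DHT. It rose without overlap (log2 fold change 0.29 ± 0.10, edgeR adjusted p = 0.017). NFKB1 had 101, 95.6 and 97.0 CPM in DHT+WBM, against 89.2, 88.2 and 88.5 CPM in DHT (log2 fold change 0.14 ± 0.04, edgeR adjusted p = 0.00449). RELA (chromosome 11, 65421067 to 65430443), the main activating subunit, had 83.4, 77.0 and 78.5 CPM in DHT+WBM and 76.4, 70.2 and 82.0 CPM in DHT. Its groups overlapped, and the difference did not pass the test (log2 fold change 0.06 ± 0.05, edgeR adjusted p = 0.28). Single libraries or the choice of test decided some of these calls. With DESeq2, another test for counts, the adjusted p of REL on all libraries was 0.0844. The adjusted p of REL was 0.0522, 0.0767 and 0.0834 without DHT+WBM replicate 2, DHT+WBM replicate 3 or DHT replicate 3 (0.00605 to 0.0844 over all alternatives), that of NFKB1 was 0.0583 without DHT+WBM replicate 1 (0.000246 to 0.0583), and that of RELA was 0.0469 without DHT replicate 3 (0.0469 to 0.916), where its log2 fold change was 0.12.

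Levels per gene length put the subunits in another order in each group. In DHT+WBM, NFKB2 was highest at 26.1 ± 0.68 CPM per kb, followed by RELA at 23.7 ± 1.00, NFKB1 at 18.7 ± 0.54, RELB at 5.88 ± 0.31 and REL at 3.09 ± 0.16 CPM per kb (SD, n = 3). In DHT, RELA led at 22.7 ± 1.75 CPM per kb, NFKB1 at 17.0 ± 0.10 and NFKB2 at 16.9 ± 0.31 did not differ beyond their spread, and RELB at 3.25 ± 0.39 and REL at 2.53 ± 0.19 followed. In the IKK and IKK-related group the levels per kb in DHT+WBM were 10.6 ± 0.66 for CHUK, 4.59 ± 0.37 for IKBKE and 3.13 ± 0.47 for IKBKB. In DHT they were 12.1 ± 0.62 for CHUK, 3.56 ± 0.12 for IKBKB and 3.21 ± 0.34 for IKBKE, the last pair overlapping in their spread.

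**Figure D2:**
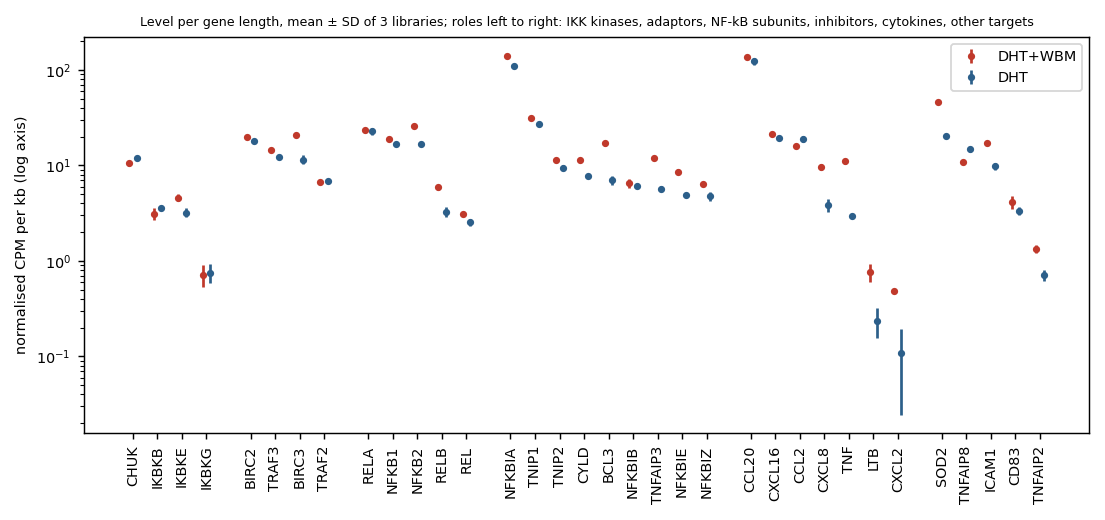
Normalised CPM per kb of gene length on a log axis, mean ± SD of 3 libraries in DHT+WBM and in DHT, for the 34 tested members in their role groups. NFKBIA and CCL20 stand above 100 CPM per kb in both groups, while LTB and CXCL2 stay below 1.

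Ratios taken within each library show how related genes moved against each other. These 4 pairs were picked after their values had been seen. The BIRC3/BIRC2 ratio of CPM per kb was 1.05 ± 0.01 in DHT+WBM and 0.645 ± 0.053 in DHT (SD, n = 3). NFKB2/NFKB1 was 1.40 ± 0.06 in DHT+WBM and 0.997 ± 0.013 in DHT. RELB/RELA was 0.248 ± 0.023 in DHT+WBM and 0.144 ± 0.027 in DHT. IKBKE/IKBKB was 1.5 ± 0.33 in DHT+WBM, spread from 1.16 to 1.82, and 0.902 ± 0.067 in DHT. In all 4 pairs the groups did not overlap. Each two-sided exact permutation test gave p = 0.1, the smallest that 3 against 3 libraries allow. It was 0.1 also after Benjamini-Hochberg adjustment over the 4 pairs. Because the pairs were picked with their values known, the separation and this p are a description and not evidence of a difference.

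**Figure D3:**
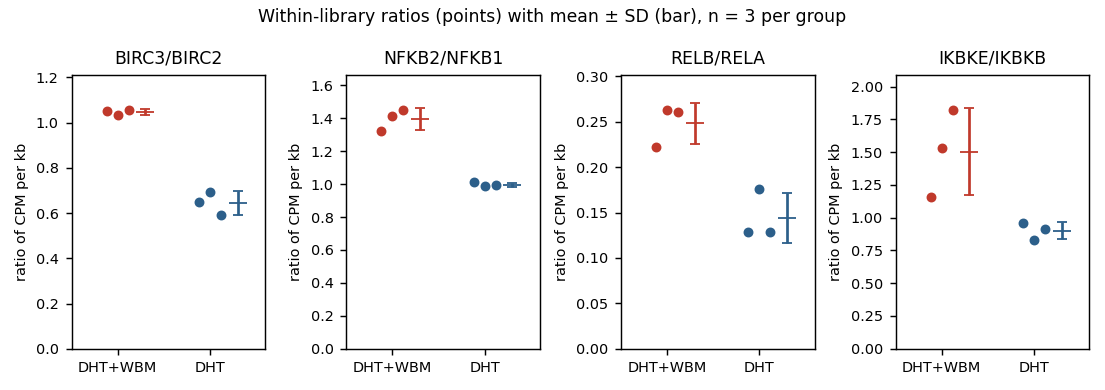
Ratio of CPM per kb of 4 gene pairs in each library (points), with the mean ± SD of 3 libraries (bar), in DHT+WBM and in DHT. BIRC3/BIRC2 and NFKB2/NFKB1 sit near 1.05 and 1.40 in DHT+WBM, and IKBKE/IKBKB has the widest spread.

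The inhibitors and regulators, most of which NF-kB itself is known to induce, rose in 8 of 9 members, where 29.2% of all tested genes rose. BCL3 (chromosome 19, 45251978 to 45263301, plus strand), an atypical nuclear IkB protein that works with NFKB1 and NFKB2 homodimers, had 30.8, 34.1 and 29.9 CPM in DHT+WBM, against 13.7, 11.4 and 13.6 CPM in DHT. The groups were far apart, at a 2.44-fold rise (log2 fold change 1.29 ± 0.07, edgeR adjusted p = 9.19e-18). TNFAIP3 (chromosome 6, 138188325 to 138204451, plus strand), a ubiquitin-editing brake on the pathway, had 57.2, 59.2 and 57.9 CPM in DHT+WBM, against 26.2, 28.1 and 29.2 CPM in DHT (log2 fold change 1.06 ± 0.05, edgeR adjusted p = 2.86e-19). NFKBIE (chromosome 6, 44225903 to 44233525, minus strand), which encodes IkB-epsilon, had 20.8, 23.5 and 22.2 CPM in DHT+WBM, against 12.7, 12.2 and 13.1 CPM in DHT (log2 fold change 0.81 ± 0.07, edgeR adjusted p = 6.75e-12).

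CYLD (chromosome 16, 50775961 to 50835846), a deubiquitinase that switches off upstream signalling, had 135, 140 and 140.5 CPM in DHT+WBM, against 91.1, 96.8 and 91.1 CPM in DHT. It rose 1.49-fold with no overlap (edgeR adjusted p = 9.23e-15). NFKBIZ (chromosome 3, 101546834 to 101579869), the gene of the inducible nuclear protein IkB-zeta, had 27.5, 26.6 and 26.4 CPM in DHT+WBM, against 21.2, 21.1 and 17.2 CPM in DHT (log2 fold change 0.44 ± 0.07, edgeR adjusted p = 1.71e-06). The table has NXPE3 overlapping NFKBIZ on the same strand. NXPE3 also rose, to 160 ± 4.52 CPM in DHT+WBM, against 121 ± 2.57 CPM in DHT, and shared reads were not resolved here.

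NFKBIA (chromosome 14, 35870716 to 35873960, minus strand), the gene of the classical inhibitor IkB-alpha, had 224, 216 and 215 CPM in DHT+WBM, against 169, 172 and 178 CPM in DHT. NFKBIA rose 1.26-fold with no overlap (log2 fold change 0.34 ± 0.04, edgeR adjusted p = 2.19e-09). Per kb it was the most abundant inhibitor gene, at 140 ± 3.22 CPM per kb in DHT+WBM and 111 ± 3.18 CPM per kb in DHT. The chemokine CCL20 was close to it, at 138 ± 6.27 CPM per kb in DHT+WBM and 123 ± 11.1 CPM per kb in DHT, and its mean was below that of NFKBIA in DHT+WBM and above it in DHT. TNIP1 and TNIP2, which encode partners of the TNFAIP3 protein, rose by log2 fold changes of 0.20 and 0.29. NFKBIB, the IkB-beta gene, had 15.8, 16.7 and 13.4 CPM in DHT+WBM and 13.6, 14.8 and 14.9 CPM in DHT, and did not pass the test. NFKBIB also overlaps SIRT2 on the opposite strand in the table, the strand setting of the counting is not given in the sources used here, and SIRT2 rose to 41.1 ± 1.21 CPM in DHT+WBM, against 36.1 ± 1.92 CPM in DHT.

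**Figure D4:**
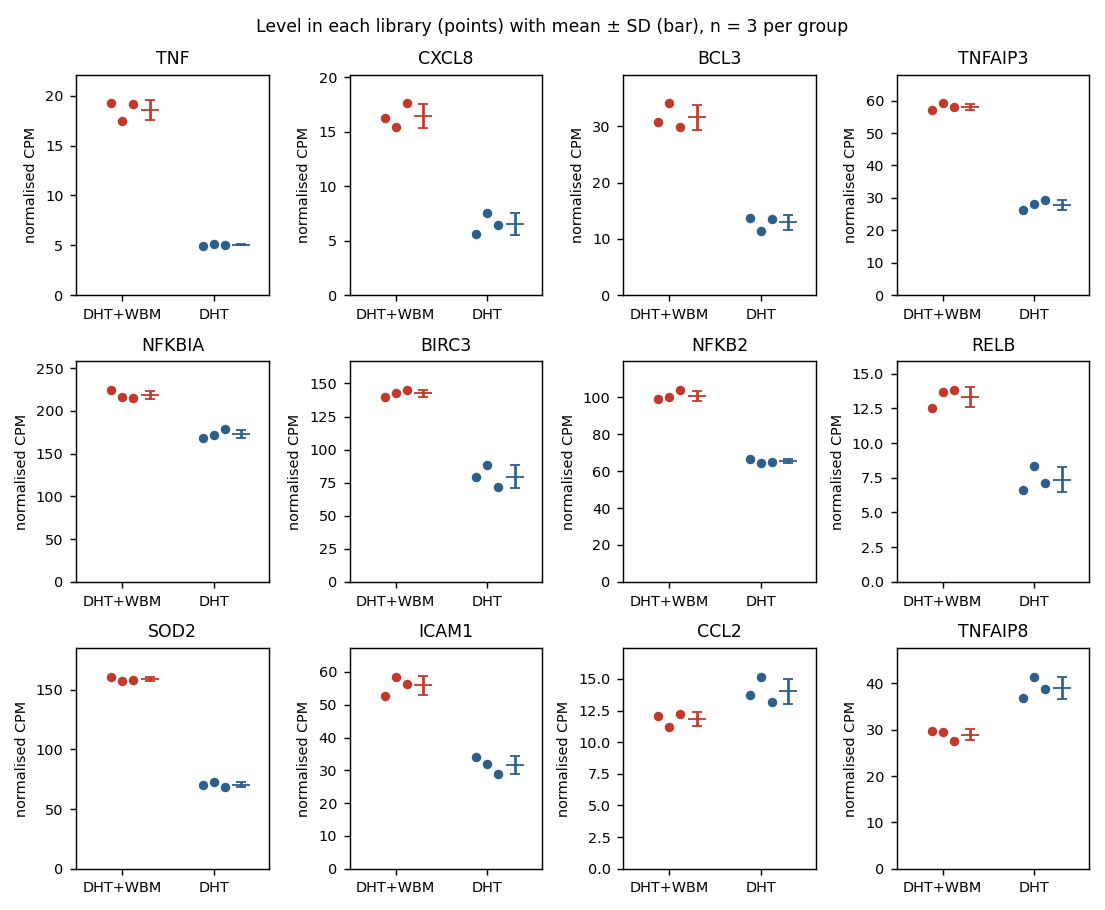
Normalised CPM of 12 members in each library (points), with the mean ± SD of 3 libraries (bar), in DHT+WBM and in DHT. In all 12 the groups do not overlap, with 10 higher in DHT+WBM and CCL2 and TNFAIP8 lower. The 12 were picked, and the 6 tested members with overlapping groups are not among them. Of all tested genes, 31.1% had every DHT+WBM library above every DHT library and 31.1% had every one below.

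The cytokine genes split into a few with large rises, a few abundant ones with small changes, and a set that was nearly silent. TNF (chromosome 6, 31543344 to 31546112, plus strand), the main cytokine that activates and is induced by the canonical arm, had 19.2, 17.4 and 19.1 CPM in DHT+WBM, against 4.96, 5.08 and 5.07 CPM in DHT. The groups were widely separated (log2 fold change 1.89 ± 0.09, edgeR adjusted p = 4.48e-20), and TNF ranked 60 of 13466 genes from the largest rise. CXCL8 (chromosome 4, 74606223 to 74609433, plus strand), the neutrophil-attracting interleukin-8, had 16.3, 15.4 and 17.6 CPM in DHT+WBM, against 5.58, 7.55 and 6.48 CPM in DHT (log2 fold change 1.34 ± 0.10, edgeR adjusted p = 5.65e-15).

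LTB, the lymphotoxin-beta gene that lies 2224 bases from TNF on the opposite strand, had 16, 10 and 16 counts in DHT+WBM, against 4, 3 and 6 counts in DHT. The ratio of its CPM was 3.21 (95% interval 1.69 to 6.52, exact Poisson, counting error only). LTB passed the low-count filter through its DHT+WBM counts alone, so no p is given for it and its interval is not a test. LTA, between NFKBIL1 and TNF, was nearly silent, with 0 counts in DHT+WBM and at most 1 count in DHT. NFKBIL1, 15667 bases from TNF, was 13.6 ± 0.76 CPM in DHT+WBM and 13.7 ± 0.54 CPM in DHT and did not pass the test. PRRC2A, 42338 bases from TNF on the other side, was 762 ± 2.84 CPM in DHT+WBM and 774 ± 21 CPM in DHT, also short of the threshold. Not all surrounding genes were unchanged. Within 100 kb of TNF, DDX39B (-0.83 on the log2 scale), LY6G5B (-1.09) and C6orf47 (0.16) passed the test. DDX39B varied widely in DHT, at 23.7 ± 9.15 CPM, against 13.4 ± 1.40 CPM in DHT+WBM.

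CXCL2, a neutrophil chemokine, had 12, 12 and 12 counts in DHT+WBM, against 1, 2 and 5 counts in DHT. The ratio of its CPM was 4.47 (95% interval 2.04 to 11.1, exact Poisson, counting error only). CXCL2 passed the low-count filter through its DHT+WBM counts alone, so no p is given for it and its interval is not a test. Its fitted log2 fold change of 2.11 was 2.89 without DHT replicate 3 and 1.71 without DHT replicate 1. CXCL1, CXCL2 and CXCL3 are close paralogues on chromosome 4 whose reads can be credited to the wrong copy, so they were also summed, giving 14, 14 and 14 counts in DHT+WBM and 1, 2 and 5 counts in DHT. CXCL1 had 2, 1 and 1 counts and CXCL3 0, 1 and 1 in DHT+WBM, and both had 0 in every DHT library.

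The abundant chemokines moved little. CCL20 (chromosome 2, 228678558 to 228682280, plus strand), a ligand of the lymphocyte receptor CCR6, had 114, 111 and 121 CPM in DHT+WBM, against 107, 110 and 92.8 CPM in DHT. Its rise (log2 fold change 0.16 ± 0.05, edgeR adjusted p = 0.00601) was 0.11 without DHT+WBM replicate 3 (adjusted p = 0.0787) and 0.08 without DHT replicate 3 (adjusted p = 0.118), in a range of 0.000462 to 0.118 over all alternatives. CXCL16, a membrane-bound chemokine, had 51.4, 51.0 and 49.6 CPM in DHT+WBM, against 44.7, 47.8 and 45.7 CPM in DHT. Its adjusted p of 0.0196 became 0.0887, 0.0670 and 0.0837 without DHT+WBM replicate 1, DHT+WBM replicate 2 or DHT replicate 1, in a range of 0.00211 to 0.0887. CXCL16 overlaps MED11 on the opposite strand, which did not pass the test, at 18 ± 2.30 CPM in DHT+WBM and 15.8 ± 1.20 CPM in DHT.

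CCL2 (chromosome 17, 32582296 to 32584220, plus strand), a monocyte attractant, was the only tested cytokine among the members that fell. It had 12, 11.2 and 12.2 CPM in DHT+WBM, against 13.7, 15.1 and 13.2 CPM in DHT, and fell by 0.24 on the log2 scale (SE 0.08, edgeR adjusted p = 0.0123). The groups did not overlap, and the adjusted p was 0.0525 without DHT+WBM replicate 2 and 0.0771 without DHT replicate 2, in a range of 0.00677 to 0.0771. The classical inflammatory interleukins were at the edge of detection in both groups. IL1A had 0 counts in every DHT+WBM library and at most 1 in DHT, IL1B at most 3 in DHT+WBM and 1 in DHT, IL6 at most 1 in either group, and IL18 at most 6 in DHT+WBM and 2 in DHT. At such counts no difference was detectable for these genes.

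Of the other targets, SOD2 (chromosome 6, 160100149 to 160114353, minus strand), the mitochondrial superoxide dismutase gene, had 161, 158 and 158 CPM in DHT+WBM, against 70.2, 72.3 and 68.5 CPM in DHT, a 2.26-fold difference (log2 fold change 1.17 ± 0.04, edgeR adjusted p = 3.16e-24). TNFAIP2, a TNF-induced gene of membrane protrusions, had 5.31, 5.29 and 6.17 CPM in DHT+WBM, against 3.44, 2.67 and 2.78 CPM in DHT (log2 fold change 0.92 ± 0.14, edgeR adjusted p = 5.07e-07). ICAM1 (chromosome 19, 10381517 to 10397291, plus strand), a leukocyte adhesion molecule, had 52.7, 58.5 and 56.5 CPM in DHT+WBM, against 34.1, 31.9 and 28.8 CPM in DHT (log2 fold change 0.82 ± 0.06, edgeR adjusted p = 3.99e-15). In all 3 genes the DHT+WBM libraries lay above every DHT library.

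CD83, an immune surface protein gene, had 8.72, 10.8 and 11.7 CPM in DHT+WBM, against 7.59, 9.01 and 8.68 CPM in DHT. Its groups overlapped, and its rise (log2 fold change 0.31, edgeR adjusted p = 0.00973) was 0.20 without DHT+WBM replicate 3 (adjusted p = 0.134) and 0.24 without DHT replicate 1 (adjusted p = 0.0729), in a range of 0.00133 to 0.134. TNFAIP8 (chromosome 5, 118604418 to 118730294, plus strand), a TNF-induced inhibitor of apoptosis, went against the rest of its group. It had 29.7, 29.5 and 27.5 CPM in DHT+WBM, against 36.8, 41.4 and 38.8 CPM in DHT, and fell by 0.43 on the log2 scale (SE 0.06, edgeR adjusted p = 7.01e-08). Counted over all 34 tested members, 25 had every DHT+WBM library above every DHT library and 3 had every one below, against 31.1% of all tested genes in each direction. Without CXCL2 and LTB, which entered the test through DHT+WBM counts alone, 23 of 32 lay above and 3 below.

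Genes around the members were read from 3 further lists. Of 23 receptors and signal transducers upstream of IKK, all tested, 11 were called higher, 4 lower and 8 in neither direction, or 47.8% higher and 17.4% lower against 29.2% and 29% of all tested genes, and their median log2 fold change was 0.12. IRAK2 and IRAK1, kinases of interleukin-1 and Toll-like receptor signalling, rose. IRAK2 was 20.5 ± 0.65 CPM in DHT+WBM and 10.9 ± 0.80 CPM in DHT (log2 fold change 0.91 ± 0.08, edgeR adjusted p = 7.44e-13). IRAK1 was 341 ± 5.78 CPM in DHT+WBM and 263 ± 14.3 CPM in DHT (log2 fold change 0.37 ± 0.04, edgeR adjusted p = 3.13e-10). MYD88, the adaptor that recruits them, fell by 0.47 on the log2 scale, to 42.3 ± 0.46 CPM in DHT+WBM, against 58.5 ± 1.6 CPM in DHT (edgeR adjusted p = 2.63e-10).

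Of 10 further genes of the non-canonical arm, 4 were tested and 3 rose, against 29.2% of all tested genes. The kinase gene MAP3K14, whose product activates CHUK, was 9.92 ± 0.08 CPM in DHT+WBM and 6.75 ± 0.36 CPM in DHT (log2 fold change 0.55 ± 0.10, edgeR adjusted p = 6.27e-06). The receptor genes TNFRSF12A and LTBR rose by log2 fold changes of 0.66 and 0.16. The ligand genes TNFSF11, TNFSF12, TNFSF13B and TNFSF14 were too rare for the test. Of 34 further NF-kB targets, 20 were tested, 13 were called higher, 2 lower and 5 in neither direction, or 65% higher and 10% lower against 29.2% and 29% of all tested genes, and their median log2 fold change was 0.30. The autophagy receptor gene SQSTM1, which NRF2 also induces, rose 2.22-fold to 1430 ± 52.0 CPM in DHT+WBM, against 644 ± 29.8 CPM in DHT. The acute-phase gene SAA1 rose 3.29-fold to 22.8 ± 0.81 CPM in DHT+WBM, against 6.90 ± 0.64 CPM in DHT, although SAA1 and SAA2 are near-identical copies. JUNB, an AP-1 subunit gene, rose by a log2 fold change of 0.72.

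Markers of other cell types were also read. CD68, a lysosomal protein gene used to mark macrophages, rose to 84.5 ± 4.61 CPM in DHT+WBM, against 23.0 ± 1.1 CPM in DHT (log2 fold change 1.88 ± 0.06, edgeR adjusted p = 7.71e-27). Of the 14 leukocyte markers, 3 were tested and rose, namely CD68, ITGAM and LYZ, where 29.2% of all tested genes rose. ITGAM was 1.41 ± 0.13 CPM in DHT+WBM and 0.636 ± 0.041 CPM in DHT, and LYZ was 2.86 ± 0.56 CPM in DHT+WBM and 2.10 ± 0.15 CPM in DHT. The LYZ call (edgeR adjusted p = 0.0302) was lost without DHT+WBM replicate 1, where its log2 fold change was 0.28 rather than 0.45, and without DHT replicate 2 or DHT replicate 3. The summed level of all 14 ranged from 86.3 to 94.2 CPM in DHT+WBM and from 24.7 to 26.9 CPM in DHT, and CD68 alone made up 80.5 to 89.5 CPM of it in DHT+WBM and 21.6 to 23.7 CPM in DHT. The other 11 markers were too rare for the test. FCGR3A, MS4A1 and NKG7 were at 0 in every library, and PTPRC and CD14 stayed at or below 1 count. CD163, another macrophage marker, had 10, 3 and 6 counts in DHT+WBM and 1, 1 and 0 counts in DHT, too few for the test. The 9 stromal and endothelial markers summed to between 17.1 and 17.9 CPM in DHT+WBM and between 18.5 and 20.6 CPM in DHT, and COL1A2 and CDH5 were at 0. COL3A1 fell to 2.2 ± 0.19 CPM in DHT+WBM, against 4.03 ± 0.39 CPM in DHT (log2 fold change -0.89 ± 0.16, edgeR adjusted p = 7.87e-06). VWF was 2.16 ± 0.085 CPM in DHT+WBM and 2.83 ± 0.49 CPM in DHT, with every DHT+WBM library below every DHT library, and did not pass the test (edgeR adjusted p = 0.0507). COL1A1 and PDGFRB did not pass it either, and PECAM1, with at most 3 counts, was not tested. Basal markers summed to between 4.51 and 5.29 CPM in DHT+WBM and between 4.44 and 6.73 CPM in DHT. The 10 luminal prostate markers summed to between 3578 and 3694 CPM in DHT+WBM and between 5034 and 5229 CPM in DHT, with KRT8 the one marker called higher. The part of these markers in the cytokine values was not tested.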

How the data were processed

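The table deposited by the authors holds unnormalized whole-number counts for each gene, beside its length in kb. Per the submitters' processing notes the named tools include edgeR 3.28.1, HTSeq 0.6.0, STAR 2.6.0 and bcl2fastq 2.18.0.12, with build hg19. How they were used, with which annotation and strand setting, is not given in the sources used here. Groups came from the sample titles, and columns were matched by the code in each title. The comparison was fitted in edgeR 4.0.16 under R 4.3.3. The low-count filter was filterByExpr (minimum count 10 in at least 3 libraries, minimum total 15), scaling was by TMM, and the test was the quasi-likelihood F-test, two-sided, with Benjamini-Hochberg adjustment over all 13466 tested genes. CPM values use TMM-scaled library totals, with SD over 3 libraries, per kb only where genes are compared. Total counts were 19127357 to 21490953 per library, and intervals cover counting error only. Libraries of a group differed by more than counting noise, so none was treated as a duplicate. Fits were tested on simulated counts.

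Members and gene lists were chosen with earlier results of these data known. Values in every library are given for up to 5 called members of each role with the largest change, and for members against their role's direction. Other members, the low-count ratios and the gene pairs were added after values were seen. From each further list up to 3 genes with the smallest adjusted p are named. Promoter windows are RefSeq sequences of GRCh38.p14, matched by symbol, and their coordinates are not mixed with hg19. Some overlapping-gene and marker results are not reported here. Alternatives were RLE, upper-quartile and library-total scaling, no filter, a 1 CPM filter, DESeq2 1.42.0, limma-voom (limma 3.58.1), the replicate block, an adjusted p under 0.01, and each library left out.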

Additional observations from a re-analysis of the deposited data

How the results depend on the processing

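The count of members that rose was 26, and it lay between 23 and 27 under the alternatives listed above. With CXCL2 and LTB left out, an alternative chosen after seeing the data, it was 24. The count of members that fell was 4, and it was 2 with DESeq2 and 2 at an adjusted p under 0.01. Leaving out 1 library in turn gave 2 to 4 falls and 23 to 26 rises, and 2 falls were left without DHT+WBM replicate 2. Over all member and alternative combinations, 27 calls were lost, 1 was gained and 480 kept their side of the threshold, with no change of sign in a called value. The lost calls were of CCL2, CCL20, CD83, CXCL16, IKBKB, NFKB1 and REL. IKBKB was also lost under upper-quartile factors (adjusted p = 0.0911), library totals (0.121) and DESeq2 (0.104). DESeq2 lost REL (adjusted p = 0.0844), CXCL16 (0.055), CCL2 (0.0545) and CD83 (0.0513) as well. At an adjusted p under 0.01, CCL2, CXCL16, IKBKB and REL no longer passed. The cause was not tested. Library totals alone moved the median of all genes to 0.05 on the log2 scale, with 34.7% of genes higher and 23.8% lower, and 26 members rose and 3 fell.

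Replicate numbers did not pair the libraries. Same-numbered libraries had correlations of 0.0479, 0.0792 and 0.0211 of their deviations from the group means, and 3 of 6 libraries correlated best with their own number. With the replicate block 26 members rose and 4 fell, 4079 of all genes were higher and 4030 lower. Depth limits the interleukin genes, TRAF1, LTB and the CXCL1 to CXCL3 group, which rest on 16 counts or fewer per library.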
